A study of Homo sapiens with 6 samples.

Results

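The messenger RNA of 10 genes of the circadian clock was measured in a pancreatic cancer cell line at 2 glucose concentrations. The genes were the period genes PER1, PER2 and PER3, the cryptochromes CRY1 and CRY2, the REV-ERB receptor genes NR1D1 and NR1D2, the activator gene BMAL1, and DBP and TEF, which encode PAR bZIP output factors. They were chosen by name for their place in the clock, with earlier results of these data known. Their rows were found by Ensembl gene identifier with the version removed. All 10 were among the 60668 gene rows of the series, and all 10 had enough reads to be tested.

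The circadian clock is a feedback loop of transcription that runs in most mammalian cells. BMAL1 pairs with CLOCK or NPAS2, binds DNA elements called E-boxes and turns on the PER, CRY, NR1D and DBP genes. PER and CRY proteins gather in the cytoplasm, enter the nucleus and repress that pair, which closes the main loop. In a linked loop the REV-ERB receptors repress BMAL1, and ROR receptors activate it at the same elements. DBP and TEF carry the rhythm to other genes through D-boxes, where NFIL3 acts against them. PER1 also responds within hours to serum, cAMP and glucocorticoid signals, apart from the loop.

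MiaPaCa-2 is an established line of human pancreatic ductal adenocarcinoma. The study grew it in low glucose to model the sparse nutrient supply of this tumor. Each condition had 3 libraries, which the series describes as independent biological replicates. The low-glucose cells were kept at 2.5 mM glucose for 48 h, and the control cells at 25 mM glucose. In the labels, the treatment text names 2.5 mM for every sample, controls included, so the control level of 25 mM is taken from the design text. No genetic change was made in either group. The methods list serum and antibiotics for both media, and list glutamine and the agent against mycoplasma for the standard medium only. Cells were not stated to be synchronized, and the time since the last medium change was not given in the sources used here. All libraries come from a single time point, so a change in level and a shift in phase cannot be told apart. In bulk RNA, fewer cells that express a gene and less RNA per cell cannot be told apart either.

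The libraries held 9741183 to 13733477 reads on genes, with the 3 control libraries at 9741183 to 10190154 and the 3 low-glucose libraries at 10595408 to 13733477. Only low-glucose replicates 1 and 2 could be matched to their labels by number, so the other libraries are named here by their total. The control libraries differed from each other more than the low-glucose libraries did. The chi-square per gene between libraries of a condition was 4.35 to 17.4 among controls, highest between those of 10126218 and 10190154 reads, and 1.86 to 2.76 among low-glucose libraries. Markers of the line were present in every library: KRT8, KRT18 and VIM had 13896 to 107058 reads. Leukocyte PTPRC, acinar PRSS1 and beta-cell INS had no reads in any library. Endothelial PECAM1 and fibroblast COL1A1 had at most 14 reads in any library. All 10 genes of a fixed proliferation list fell at low glucose, by log2 values from -1.58 to -0.68, and their summed normalized count lay between 32531 and 35306 in control libraries but between 15982 and 17377 at low glucose. Of these 3 line markers, KRT8 and KRT18 fell, by log2 values of -1.01 and -0.74, and VIM rose by 0.42. The VIM call was lost with quantile scaling (0.21, limma adjusted p = 0.206), and without the control library of 9741183 reads (0.38, limma adjusted p = 0.0636), low-glucose replicate 1 (0.43, limma adjusted p = 0.0543) or replicate 2 (0.40, limma adjusted p = 0.0764). The part of these changes in the clock results was not tested.

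The promoters of the members are shown by 4 windows, chosen because they hold the elements through which the loop is known to act: PER1, the member with the largest change, its paralog PER2, NR1D2 for the receptor genes, and BMAL1 for their target. Each window holds 250 bases before and 50 bases after a RefSeq start site on GRCh38.p14 and reads 5′ to 3′ on the gene's own strand. PER1 is at chr17:8152355-8152654 on the minus strand, PER2 at chr2:238288561-238288860 on the minus strand, NR1D2 at chr3:23945871-23946170 on the plus strand and BMAL1 at chr11:13277540-13277839 on the plus strand. The NR1D2 and BMAL1 windows belong to the downstream of 2 start sites listed for each gene. Capitals mark matches to the motifs, which were chosen after the windows had been seen.

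PER1: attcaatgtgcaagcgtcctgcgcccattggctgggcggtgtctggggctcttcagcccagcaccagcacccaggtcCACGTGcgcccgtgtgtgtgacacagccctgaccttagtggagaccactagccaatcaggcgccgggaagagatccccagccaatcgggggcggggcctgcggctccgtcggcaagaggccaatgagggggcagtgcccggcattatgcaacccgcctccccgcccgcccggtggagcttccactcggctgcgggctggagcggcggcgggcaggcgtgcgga
PER2: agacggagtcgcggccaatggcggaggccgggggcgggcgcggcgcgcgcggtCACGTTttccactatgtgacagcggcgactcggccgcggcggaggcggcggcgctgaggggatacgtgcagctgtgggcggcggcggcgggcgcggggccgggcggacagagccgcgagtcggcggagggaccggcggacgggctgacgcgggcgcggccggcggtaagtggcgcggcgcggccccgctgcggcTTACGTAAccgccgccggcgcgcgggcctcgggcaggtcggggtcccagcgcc
NR1D2: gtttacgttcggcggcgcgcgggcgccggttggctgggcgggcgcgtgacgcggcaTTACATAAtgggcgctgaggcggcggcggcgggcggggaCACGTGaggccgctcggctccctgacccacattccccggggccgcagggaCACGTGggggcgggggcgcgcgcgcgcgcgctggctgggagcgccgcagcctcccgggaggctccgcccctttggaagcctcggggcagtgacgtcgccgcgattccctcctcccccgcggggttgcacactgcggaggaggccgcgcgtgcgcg
BMAL1: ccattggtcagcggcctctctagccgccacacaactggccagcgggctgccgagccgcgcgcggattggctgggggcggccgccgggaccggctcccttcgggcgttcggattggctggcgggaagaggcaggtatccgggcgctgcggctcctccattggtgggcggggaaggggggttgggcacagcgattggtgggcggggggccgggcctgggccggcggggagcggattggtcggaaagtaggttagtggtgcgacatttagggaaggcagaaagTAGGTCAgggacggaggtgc

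All motifs were searched on both strands, and none of the matches printed overlapped another. The E-box CACGTG, which reads the same on both strands, begins 173 bases before the start site in PER1, and 155 and 105 bases before it in NR1D2. TEF holds it in both of its windows. It was present in 4 of the 15 windows of the members and in 7.26% of 35116 promoter windows of all genes. The near E-box CACGTT stands 197 bases before the start in PER2, and was also found in CRY1, CRY2 and NR1D1. It was in 4 of the 15 member windows, against 5.34% of all windows. PER2 holds the D-box TTACGTAA 3 bases before its start, a motif of 1 of the 15 member windows and of 0.125% of all windows. The related D-box TTATGTAA, seen in NR1D2 as its reverse complement TTACATAA, was also found in PER3. It occurred in 2 of the 15 member windows and in 0.886% of all windows. The core of the REV-ERB and ROR element, TAGGTCA, begins 30 bases after the start in BMAL1 and was found in CRY2 too. It occurred in 2 of the 15 member windows and in 1.85% of all windows. The full cAMP element TGACGTCA was in none of the 15 windows of the members and in 1.85% of all windows. The DBP window held no match to any of these motifs. Neither did the upstream windows of CRY2, NR1D2 and BMAL1 or the downstream window of PER3. A match describes letters only, and binding was not measured here.

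PER1, NR1D1, NR1D2 and TEF rose at low glucose and BMAL1 fell, while PER2, PER3, CRY1, CRY2 and DBP did not pass the test. PER1 stood out among the members with a 3.19-fold rise, followed by NR1D1 at 1.66-fold and NR1D2 at 1.50-fold. The test was limma on log2(normalized count + 1), with p-values adjusted by the Benjamini-Hochberg method over the 21101 genes tested and a threshold of 0.05. Of the 10 members, 5 passed, against 30.9% of all genes tested. In single directions, 4 members rose against 14.7% of all genes, and 1 fell against 16.2%. The libraries of the conditions did not overlap for 8 of the 10 members, 6 of them higher and 2 lower at low glucose, and did not overlap for 43.9% of all genes. The median log2 change of the members was 0.32, beside 0.05 over all genes tested, and their median absolute change was 0.39, beside 0.37. The median member thus moved about as far as the median gene did. PER1 lay further out, with 3.02% of the genes tested showing a larger absolute change, and for NR1D2 and BMAL1 that share was 29.3% and 33.4%.

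**Figure D1:**
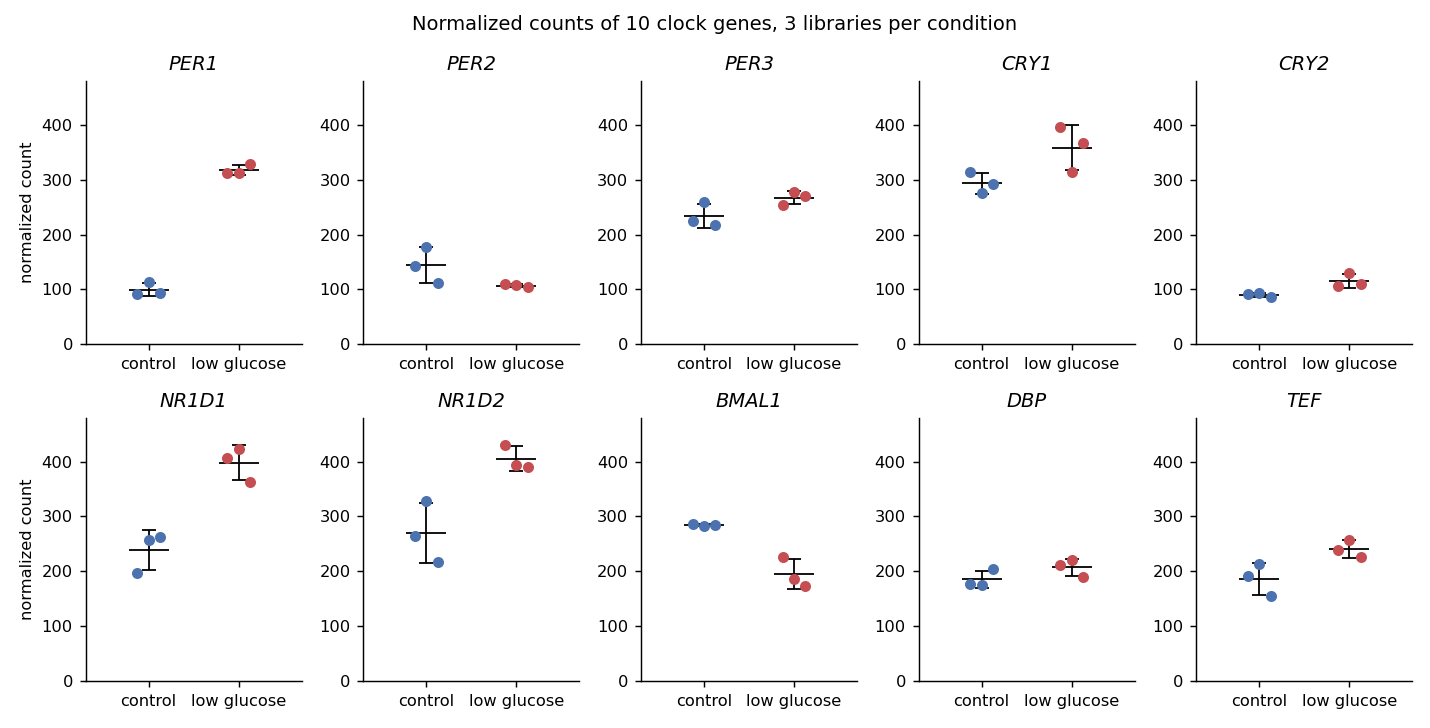
Normalized count (vertical axis, reads divided by a size factor per library) of each of the 10 members in 3 control (blue) and 3 low-glucose (red) libraries. Points are libraries, long bars are means and whiskers are ± 1 SD, and the low-glucose libraries of PER1 sit at 312 to 328, well above the control libraries at 91.9 to 114.

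PER1 (ENSG00000179094, chr17:8140472-8156506, minus strand) encodes a period protein of the repressor complex and is known as the member that reacts quickest to outside signals. Its normalized counts were 91.9, 114 and 93.1 in the control libraries and 312, 312 and 328 in the low-glucose libraries. The groups lay far apart, and the low-glucose libraries were close to each other. The means were 99.6 ± 12.2 and 317 ± 9.34 (SD, n = 3 each), a log2 change of 1.67 (SE 0.123, 95% confidence interval 1.41 to 1.93, limma adjusted p = 3.23e-07). In reads, the control libraries held 82 to 102 for this gene, and the low-glucose libraries 316 to 433. The rise passed in each of 15 alternative analyses, with log2 changes of 1.60 to 1.77. These include the fits without each of the 6 libraries in turn.

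PER2 (ENSG00000132326, chr2:238244044-238290102, minus strand) is a partner of PER1 in the same complex. It had 143, 177 and 112 normalized counts in the control libraries and 110, 108 and 104 in the low-glucose libraries. Every low-glucose library lay below every control library, but the lowest control library came close to them. The log2 change was -0.40 (SE 0.162, 95% confidence interval -0.75 to -0.06) and missed the threshold (limma adjusted p = 0.0730). The control library of 10190154 reads was the low one, and without it the change was -0.57 and passed (limma adjusted p = 0.00595). Without the control library of 10126218 reads, the highest, it was -0.24 (limma adjusted p = 0.241). Among controls, that library was also highest, and that of 10190154 reads lowest, for PER3, CRY2, NR1D2 and TEF. This order did not hold for PER1, CRY1, NR1D1, BMAL1 or DBP.

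PER3 (ENSG00000049246, chr1:7784291-7845177, plus strand) encodes the period protein that the loop can best do without. It had 224, 259 and 218 normalized counts in control and 254, 278 and 270 at low glucose. The groups overlapped, and the log2 change of 0.20 (95% confidence interval -0.04 to 0.43) did not pass (limma adjusted p = 0.191).

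The period genes were set against each other within each library, which removes any scaling between libraries. The log2 ratio of PER1 to PER2 was -0.64, -0.64 and -0.27 in the control libraries and 1.50, 1.53 and 1.65 in the low-glucose libraries. The ratio was higher in every low-glucose library than in any control library. The ratio shifted by 2.07 (exact permutation test, two-sided, p = 0.1, n = 3 each), and 0.1 is the smallest p that 3 against 3 libraries allow. The ratio of PER1 to PER3 shifted by 1.47 and that of PER2 to PER3 by -0.60, each without overlap and each with the same exact permutation p = 0.1. Adjusted over the 6 pairs of related genes compared, these 3 exact permutation p-values became 0.2. This design therefore cannot show by that test that paralogs differ in response.

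**Figure D2:**
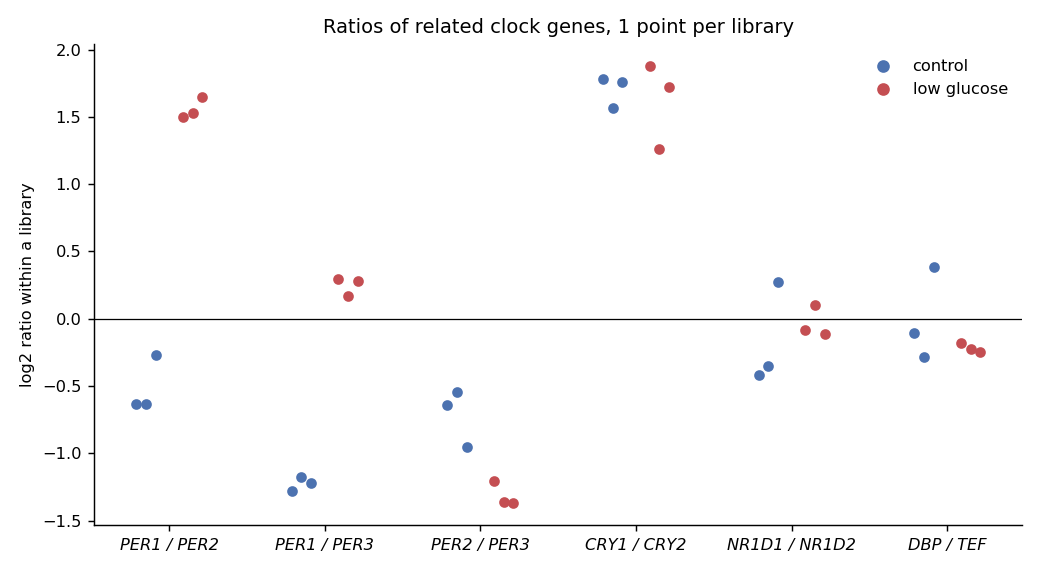
Log2 ratio of the normalized counts of 2 related genes within a library (vertical axis, 1 added to each count) for 6 pairs, with 1 point per control (blue) or low-glucose (red) library. The PER1 to PER2 ratios lie below 0 in control and at 1.50 to 1.65 in low-glucose libraries, while the ratios of CRY1 to CRY2, NR1D1 to NR1D2 and DBP to TEF overlap.

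Neither cryptochrome passed the test, although no library of either overlapped between conditions. CRY1 (ENSG00000008405, chr12:106991364-107093549, minus strand), the stronger and later-acting repressor, had 314, 275 and 292 normalized counts in control and 395, 314 and 367 at low glucose. The highest control library and the lowest low-glucose library, replicate 2, nearly met at 313.9 and 314.1. Its log2 change was 0.28 (95% confidence interval 0.05 to 0.51, limma adjusted p = 0.0609). Without replicate 2 the change was 0.38 and passed (limma adjusted p = 0.0407). Without any of the other 5 libraries it did not pass, and it was lowest, at 0.21, without replicate 1 (limma adjusted p = 0.260).

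CRY2 (ENSG00000121671, chr11:45847118-45883248, plus strand), which also represses the pair of BMAL1 and CLOCK, was among the members with fewest reads, at 80 to 146 per library. Its normalized counts were 90.8, 92.5 and 85.6 in control and 107, 130 and 111 at low glucose. The control libraries were close together and all lay below the others. The log2 change was 0.36 (95% confidence interval 0.05 to 0.68, limma adjusted p = 0.0746). The ratio of CRY1 to CRY2 shifted by -0.08 on the log2 scale (exact permutation p = 0.8).

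Both REV-ERB genes rose. NR1D1 (ENSG00000126368, chr17:40092793-40100589, minus strand) encodes REV-ERB alpha, a heme-binding nuclear receptor that lacks an activation function and represses BMAL1. Its normalized counts were 197, 256 and 263 in control and 407, 424 and 362 at low glucose, with no overlap. The means were 239 ± 36.2 and 398 ± 31.8 (SD, n = 3 each), a log2 change of 0.74 (SE 0.121, limma adjusted p = 0.000324). The rise passed in 15 of 15 alternatives, at 0.61 to 0.82.

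NR1D2 (ENSG00000174738, chr3:23945286-23980617, plus strand) encodes REV-ERB beta, which shares targets with REV-ERB alpha. It had 265, 328 and 217 normalized counts in control and 431, 394 and 391 at low glucose. The control libraries were spread more widely than the others, and none reached the low-glucose range. The means were 270 ± 55.4 and 405 ± 22.2 (SD, n = 3 each), a log2 change of 0.60 (SE 0.130, 95% confidence interval 0.33 to 0.88, limma adjusted p = 0.00262). The call was lost only in the fit without a variance trend, where the spread of each gene is not tied to its level (limma adjusted p = 0.0615). The ratio of NR1D1 to NR1D2 shifted by 0.14 (exact permutation p = 0.6), and the groups overlapped in it.

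BMAL1 (ENSG00000133794, chr11:13276652-13387266, plus strand), the activator that both REV-ERB receptors repress, was the member that fell. Its normalized counts were 286, 283 and 284 in control and 226, 186 and 174 at low glucose. The control libraries were almost equal, and every low-glucose library lay below them. The means were 284 ± 1.49 and 195 ± 27.5 (SD, n = 3 each), which is 0.687 of control, a log2 change of -0.55 (SE 0.117, 95% confidence interval -0.80 to -0.30, limma adjusted p = 0.00245). The fall passed in 15 of 15 alternatives, at -0.66 to -0.47.

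Ratios to BMAL1 within a library are given as description, with no test. NR1D1 had 0.690 to 0.928 reads per read of BMAL1 in control and 1.80 to 2.28 at low glucose. The ratio of NR1D2 to BMAL1 went from 0.766 to 1.16 in control to 1.91 to 2.25, and that of PER1 to BMAL1 from 0.322 to 0.402 to 1.38 to 1.89. All of these ratios were higher in every low-glucose library than in any control library. That follows from the rise of each gene and the fall of BMAL1, both without overlap, and is no further result. The ratio of CLOCK to BMAL1 did overlap, at 1.52 to 1.98 in control and 1.77 to 2.32 at low glucose. Of the period genes, only PER1 was compared with BMAL1. Ratios here are of counts not corrected for length, so a value over or under 1 does not say which transcript was more abundant.

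Of the output factors, TEF passed the test and DBP did not. DBP (ENSG00000105516, chr19:48630030-48637379, minus strand) is a direct E-box target whose transcript swings strongly in rhythmic tissues. It had 177, 175 and 203 normalized counts in control and 211, 220 and 190 at low glucose. These groups overlapped, with a log2 change of 0.16 (95% confidence interval -0.09 to 0.41, limma adjusted p = 0.329). TEF (ENSG00000167074, chr22:41367333-41399326, plus strand), which binds the same D-boxes, had 191, 213 and 155 normalized counts in control and 239, 258 and 226 at low glucose. Its groups did not overlap, and the log2 change was 0.38 (95% confidence interval 0.10 to 0.65, limma adjusted p = 0.0369).

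The TEF call was the weakest among the members and held in 7 of 15 alternatives. It was lost without the control library of 10190154 reads (log2 change 0.25, limma adjusted p = 0.106) or of 9741183 reads (0.40, limma adjusted p = 0.0761), and without the low-glucose library of 13733477 reads (0.42, limma adjusted p = 0.0699), replicate 1 (0.38, limma adjusted p = 0.110) or replicate 2 (0.33, limma adjusted p = 0.156). The ratio of DBP to TEF shifted by -0.22 (exact permutation p = 0.4).

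**Figure D3:**
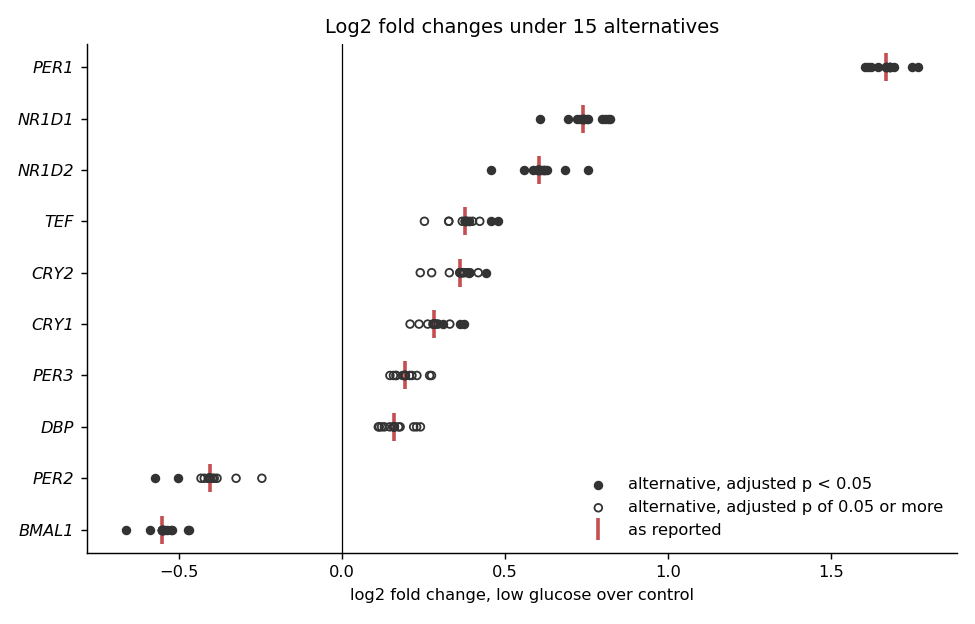
Log2 fold change of each member, low glucose over control (horizontal axis), as reported (red bar) and in 15 alternative analyses (circles, filled where the adjusted p was under 0.05). PER1, NR1D1 and BMAL1 passed in every alternative and NR1D2 in 14, while TEF passed in 7, and no member changed sign.

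Levels of different genes can be set side by side only per length, here per kilobase of the canonical transcript of Gencode v44. In control libraries BMAL1 was highest with 102 normalized counts per kilobase, then CRY1 with 98.3, NR1D1 with 90.9 and DBP with 85.3. Next came NR1D2 with 51.6, TEF with 42.5 and PER3 with 36.7, and the lowest were PER2 with 22.6, CRY2 with 21.7 and PER1 with 21.3. Neighbors in this order overlapped between libraries except at 2 steps, from DBP to NR1D2 and from PER3 to PER2. BMAL1, at 102 to 103 per kilobase in the control libraries, also lay above NR1D1 and DBP in each of them.

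At low glucose NR1D1 was highest with 151 normalized counts per kilobase, before CRY1 with 120 and DBP with 95.4. NR1D2 with 77.5, BMAL1 with 70.0 and PER1 with 67.9 overlapped as neighbors, and TEF with 54.9, PER3 with 42.0, CRY2 with 28.1 and PER2 with 16.8 followed without overlap. PER1 thus moved from rank 10 to rank 6, and BMAL1 from rank 1 to rank 5. The order depends on the length used. With the merged length of all annotated exons, BMAL1 had rank 4 and DBP rank 7 in control, while PER1 kept rank 10. At low glucose that length gave BMAL1 rank 8 and PER1 rank 5.

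**Figure D4:**
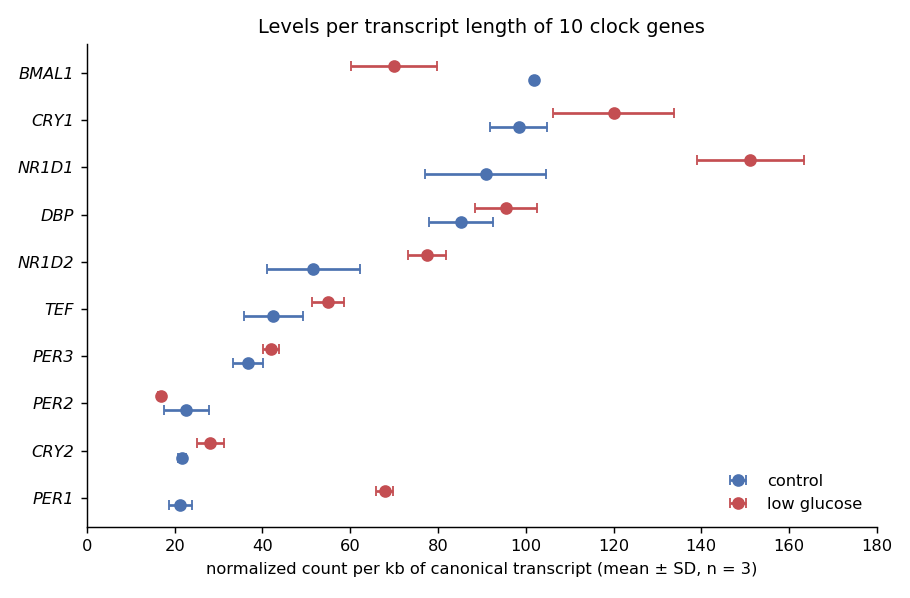
Normalized count per kilobase of canonical transcript (horizontal axis) for the 10 members in control (blue) and low-glucose (red) libraries, as mean ± SD with n = 3. PER1 moves from 21.3 to 67.9 and NR1D1 from 90.9 to 151, whereas BMAL1 moves from 102 to 70.0.

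The partners of the members were followed in a list of 28 other clock genes, of which 26 were tested. RORB and FBXL21P had no reads. Of the 26, 5 rose and 5 fell, which is 38.5% against 30.9% of all genes, with a median log2 change of 0.01. The direction of these calls depended on the scaling and on single libraries. With quantile scaling 6 rose and 1 fell, with library size scaling 6 and 2, and when low-glucose replicate 2 was dropped 4 and 1. Dropping replicate 1 gave 5 and 2, and dropping the low-glucose library of 13733477 reads or the control library of 9741183 reads gave 4 and 2.

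BMAL2, a paralog of BMAL1 that can also pair with CLOCK, rose from 69.9 ± 13.3 to 133 ± 3.10 normalized counts (SD, n = 3 each), a log2 change of 0.93 (limma adjusted p = 0.000571). Its ratio to BMAL1 within a library was 0.204 to 0.294 in control and 0.596 to 0.777 at low glucose. NPAS2, which can stand in for CLOCK, rose from 459 ± 7.10 to 592 ± 19.8, a log2 change of 0.37 (limma adjusted p = 0.00368). BMAL2 therefore moved in the opposite direction to BMAL1, and NPAS2 to CLOCK, although the fall of CLOCK was a weak call. CLOCK, the DNA-binding partner of BMAL1, had 490 ± 65.2 normalized counts in control and 401 ± 2.52 at low glucose, a log2 change of -0.28 (limma adjusted p = 0.0490). That call held in only 3 of 15 alternatives. It was lost without the control library of 10126218 reads (-0.18, limma adjusted p = 0.124) or of 9741183 reads (-0.29, limma adjusted p = 0.108), and without the low-glucose library of 13733477 reads (-0.29, limma adjusted p = 0.125), replicate 1 (-0.28, limma adjusted p = 0.136) or replicate 2 (-0.28, limma adjusted p = 0.140). The ratio of NPAS2 to CLOCK was 0.833 to 1.07 in control and 1.45 to 1.52 at low glucose.

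The D-box repressor NFIL3 had 89.7, 101 and 109 normalized counts in control and 186, 157 and 148 at low glucose, a log2 change of 0.70 (limma adjusted p = 0.00178). BHLHE40, an E-box repressor also known as DEC1, had 157, 167 and 167 in control and 254, 261 and 267 at low glucose, a log2 change of 0.67 (limma adjusted p = 0.000261). Neither gene overlapped between conditions. BHLHE41, the paralog of BHLHE40, rose by a log2 value of 0.35 (limma adjusted p = 0.0341) with overlapping libraries. The BHLHE41 call held in 9 of 15 alternatives. It was lost without the control library of 10190154 reads (0.27, limma adjusted p = 0.0797) or of 9741183 reads (0.34, limma adjusted p = 0.0998). It was also lost without low-glucose replicate 2 (0.31, limma adjusted p = 0.146) or the low-glucose library of 13733477 reads (0.30, limma adjusted p = 0.151). DESeq2 (0.35, DESeq2 adjusted p = 0.0533) and the fit without a variance trend (limma adjusted p = 0.136) lost it too.

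Among the other regulators of the loop, SFPQ joins the PER complex as an RNA-binding corepressor. It fell from 6105 ± 216 to 3707 ± 211 normalized counts, a log2 change of -0.72 (limma adjusted p = 7.66e-06), in all 15 alternatives. FBXW11, a ubiquitin ligase subunit that helps degrade PER proteins, changed by -0.32 (limma adjusted p = 0.0148). The kinase genes CSNK2A1 and CSNK1D, whose products phosphorylate clock proteins, changed by -0.27 (limma adjusted p = 0.0141) and -0.22 (limma adjusted p = 0.0300). Both kinases are named here to complete the 5 genes that fell, after their values were seen. All of these smaller calls failed with quantile scaling, without the variance trend and without single libraries. With quantile scaling the changes were -0.16 for FBXW11 (limma adjusted p = 0.163), -0.09 for CSNK2A1 (0.415) and -0.01 for CSNK1D (0.914). CSNK2A1 and CSNK1D also failed with library size scaling. FBXW11 was lost without low-glucose replicate 1 (limma adjusted p = 0.0654), replicate 2 (0.0595) or the library of 13733477 reads (0.0654). CSNK2A1 was lost without the control library of 9741183 reads (limma adjusted p = 0.0606) or low-glucose replicate 2 (0.106). CSNK1D was lost without the control library of 9741183 reads (limma adjusted p = 0.0513), replicate 1 (0.0935), replicate 2 (0.120) or the low-glucose library of 13733477 reads (0.103).

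**Figure D5:**
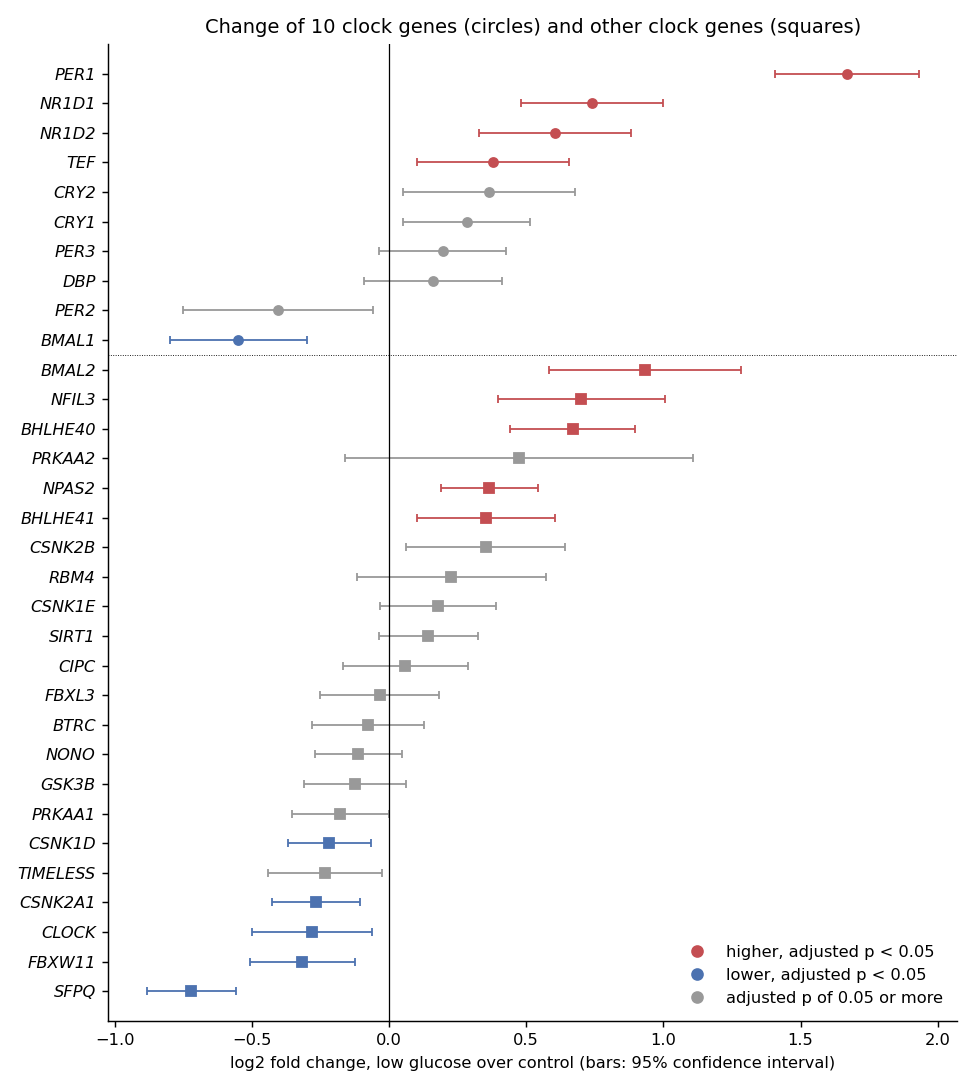
Log2 fold change, low glucose over control (horizontal axis), of the 10 members (circles) and of the 22 other clock genes with at least 10 reads in every library (squares), with 95% confidence intervals from limma. Red marks genes that rose and blue genes that fell at an adjusted p under 0.05, with PER1 at 1.67 and SFPQ at -0.72 at the ends.

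Other genes known to follow the clock in many tissues formed a list of 11, all tested, of which 2 rose and 2 fell, with a median log2 change of -0.13. The share that passed was 36.4%, beside 30.9% of all genes. TSC22D3, a leucine zipper gene also known as GILZ that responds to glucocorticoids, rose from 16.1 ± 2.43 to 110 ± 10.7 normalized counts, a log2 change of 2.70 (limma adjusted p = 6.85e-07). ALAS1, the rate-limiting enzyme of heme synthesis, rose by a log2 value of 0.42 (limma adjusted p = 0.000800). NAMPT, which limits the salvage synthesis of NAD, changed by -0.33 (limma adjusted p = 0.00281), but by -0.15 with quantile scaling, which did not pass (limma adjusted p = 0.135). The tetraspanin gene TSPAN4 changed by -0.28 (limma adjusted p = 0.0215). The TSPAN4 result failed the test when the control library of 9741183 reads (limma adjusted p = 0.0664), or any of replicate 1 (0.0810), replicate 2 (0.0873) and the library of 13733477 reads (0.0589) at low glucose, was left out. The other 7 genes of the list did not pass.

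Since PER1 responds to signals from outside the loop, 14 genes of the cAMP, growth factor and glucocorticoid responses were followed too. Of the 13 tested, 0 rose and 2 fell by limma. The share that passed was 15.4%, beside 30.9% of all genes. At an unadjusted limma p under 0.05, 0 rose and 5 fell. By edgeR 0 rose and 2 fell, and DESeq2 gave the same counts. With quantile scaling 1 of these genes, the kinase gene SGK1, rose and 4 fell, and SGK1 is named after its value was seen. The list had log2 changes between -1.11 and 0.27 and a median of -0.17, while ZBTB16 had no reads. The gene at -1.11 had only 2 to 8 reads per library. FKBP5, a chaperone gene that glucocorticoids induce, fell from 853 ± 85.9 to 430 ± 30.6 normalized counts, a log2 change of -0.99 (limma adjusted p = 3.50e-06). NR3C1, the glucocorticoid receptor gene, fell from 720 ± 43.9 to 569 ± 21.0, a log2 change of -0.34 (limma adjusted p = 0.00686). TSC22D3, which also responds to glucocorticoids, went the other way, with a log2 change of 2.70 (limma adjusted p = 6.85e-07). It was counted among the clock outputs and not in this list, so the counts here depend on how genes were assigned. Whether an outside signal acted on PER1 was not tested.

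Exons of several members overlap those of opposite-strand genes, so that reads could be counted to the wrong gene if strand was not used in counting. The library kit keeps strand, but the strand setting used in counting was not given in the sources used here. NR1D1 shares 473 exon bases with THRA, a thyroid hormone receptor gene, which had 449 and 380 normalized counts on average in control and low-glucose libraries, a log2 change of -0.23 (limma adjusted p = 0.0905). The part of this overlap in the NR1D1 value was not tested. DBP shares 661 exon bases with SPHK2, whose log2 change was 0.00 (limma adjusted p = 0.981). PER3 shares 868 with UTS2, which had 13 to 52 reads per library, and 482 with a noncoding gene of 33 to 69 reads. PER2 shares 188 with a noncoding gene of 4 to 13 reads and CRY1 shares 94 with one of 27 to 69. BMAL1 shares 421 with a noncoding gene that is not among the rows analysed here. PER1 shares none on the opposite strand, and the 2 small genes on its own strand that share exon bases with it had at most 1 read per library.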

How the data were processed

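Per the study's methods, the authors prepared strand-specific libraries, trimmed reads with Trim Galore, mapped them to hg38 with STAR 2.7.0e and used DESeq2. RSEM is among the software they list, with no role stated, so the whole numbers may be rounded estimates. The strand setting of counting and the annotation were not given in the sources used here. The deposited values are a signal: gene counts divided by a size factor per library, as the design foresaw. Dividing by the value of 1 read gave whole reads for 100% of values (tolerance 0.01), which gave the depths and fed the count tests. Of the 6 columns, 2 are named in the labels, both low glucose. The labels do not name the other 4, whose groups were taken from the runs of 3 that the column names form and from the working rule for these rows, so 0 were left unused. The 10 genes, the gene lists and the motifs were chosen with earlier results of these data known.

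All genes with a mean of at least 1 (21101) were fitted with limma 3.58.1 (R 4.3.3) on log2(value + 1), trend on, two-sided, Benjamini-Hochberg over all, threshold 0.05. Fold changes on this scale understate those of low genes. Related members were compared by exact permutation tests. Alternatives were library size, TMM and quantile scaling, no filter and a mean of at least 5, a pseudocount of 0.1, no variance trend, edgeR 4.0.16 (6554 genes called), DESeq2 1.42.0 (5486 called), and each library left out. Scripts were tested on simulated data. Members are all named. Of the other lists, at most 8 genes past the threshold are named by largest absolute change, plus CLOCK, NPAS2, NFIL3, BHLHE40 and BHLHE41, along with genes that share exons with members. Genes without reads, CSNK2A1 and CSNK1D are named beyond this rule. Lengths are from Gencode v44, to which 99.4% of identifiers matched without version. No protein sequence was used here. Of the fixed lists, 2 genes are not reported here and were left out of the list counts.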

Additional observations from a re-analysis of the deposited data

How the results depend on the processing

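No paired analysis was possible because no replicate number is given for 4 of the 6 columns. Over the alternatives, 134 of the members' values kept their side of the threshold, 7 newly passed, 9 no longer passed and 0 changed sign. PER2 also passed with quantile scaling (-0.50), CRY1 with edgeR (0.31) and library size scaling (0.36), and CRY2 with edgeR (0.39) and library size scaling (0.44), while TEF did not pass with DESeq2 (0.37), quantile scaling (0.33) or no variance trend. The number of members called was 3 to 7. Without the variance trend 3 members, 5 other clock genes, 1 clock input and 4090 of all genes were called, against 5, 10, 2 and 6528 with it. With quantile scaling 5 clock inputs were called. Leaving out each library gave 5 to 12 other clock genes, with 5 when low-glucose replicate 2 was dropped and 6 when either the control library of 9741183 reads or that of 13733477 reads at low glucose was. The same step gave 4319 to 7251 of all genes, the lowest without low-glucose replicate 1. With library size scaling 3935 genes rose and 2647 fell, against 3111 and 3417 as reported. The causes were not tested. The members had 80 to 516 reads per library, and the part of depth in the calls that were missed was not tested.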
